A study of Mus musculus with 6 samples.

Results

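The Lhx1, Pax2 and Lbx1 neurons were a group of Pomc-low embryonic neurons, 153 of 6511 embryonic cells and of 13953 cells in the whole series. They were chosen from their own read counts in the 4 embryonic libraries. A cell was a member with at least 2 unique molecular identifiers (UMIs, the counted RNA molecules) of Lhx1 and at least 1 UMI of any of 6 second genes, namely Lamp5, Pax2, Lbx1, Robo3, Hoxb2 and Uncx. It also had at least 1 UMI of 3 or more of 6 neuron genes (Elavl3, Mapt, Snap25, Stmn2, Syt1 and Tubb3), and fewer than 10 Pomc UMIs per 10000 UMIs of the cell. Of the 153 members, 138 came from E11.5, 6 from E13.5, 7 from E15.5 and 2 from E17.5.

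The study followed hypothalamic neurons that express Pomc (proopiomelanocortin) through development by single-cell RNA sequencing of cells sorted for red fluorescence. All animals came from crosses of Pomc-DsRed/+ mice with each other on the C57BL/6 background, so the red DsRed reporter was present at every age and no group without it was compared. There was 1 library for each of 4 embryonic ages from E11.5 to E17.5 and for P5 and P12, each from at least 6 pooled pups, and the titles say P5 where the protocol text says P6. Dissociation lasted 20 min at E11.5 and E13.5, 30 min at E15.5, 40 min at E17.5 and 60 min at the postnatal ages, and the reagents were version 2 for the embryos and version 3 afterwards. Age, dissociation time and library cannot be told apart, and with 1 library per age no difference between ages or groups of cells was tested. Levels below are means over cells of UMIs per 10000 UMIs of the cell, and all intervals are exact 95% intervals that cover counting error only.

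Lhx1 and its close relative Lhx5 are LIM homeodomain transcription factors. In the developing spinal cord and hindbrain they mark several classes of inhibitory interneurons, in which Pax2 is required for the inhibitory transmitter program and Lbx1 separates dorsal interneuron classes. In the hypothalamus Lhx1 is best known from the suprachiasmatic nucleus and the mammillary region. Hox genes, whose order along the chromosome follows their order along the body axis, are expressed in the hindbrain and spinal cord and are normally silent in the forebrain. Uncx is a paired-type homeodomain factor, Robo3 is a receptor that governs crossing of the midline by axons, and Lamp5 is a membrane protein of inhibitory nerve terminals.

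Lhx1 lies on chromosome 11 (84518284 to 84525535, minus strand, mm10), and the long noncoding gene Lhx1os (84525660 to 84535831) starts 125 bases away on the opposite strand and runs the other way. The window between these starts is shown because both genes were read in nearly every member. It is the RefSeq promoter window of Lhx1, from 250 bases before its start to 50 bases after it, at chr11:84525485-84525784 on the minus strand of GRCm38.p6, and the capitals mark the 127 bases from the first base of Lhx1os to the first base of Lhx1. RefSeq places that base at 84525534, 1 base further than the annotation of the positions above.
Lhx1 promoter: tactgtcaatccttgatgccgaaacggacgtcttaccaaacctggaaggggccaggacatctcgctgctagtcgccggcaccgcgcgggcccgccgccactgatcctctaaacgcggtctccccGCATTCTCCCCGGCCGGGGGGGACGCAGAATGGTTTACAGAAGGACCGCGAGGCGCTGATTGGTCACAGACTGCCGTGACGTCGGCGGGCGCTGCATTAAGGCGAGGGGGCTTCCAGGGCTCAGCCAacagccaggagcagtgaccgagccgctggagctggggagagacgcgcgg
The GC content of this window was 65.7%, against a median of 52.7% over 32851 mouse promoter windows of the same length, and 83.0% of them had less. Searched on both strands, the window held 1 CCAAT, which 37.4% of promoters held. It held no TATAAA (13.6% of promoters), no TAATTA (5.29%) and no CAGCTG (16.3%). These matches describe letters only.

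At E11.5 the members were 138 of 1498 cells (9.21%, interval 7.80 to 10.8) and 138 of the 891 Pomc-low neurons (interval of that share 13.2 to 18.0%), or 2.61% with every cell thinned to 2500 UMIs. They were compared with the other 753 Pomc-low neurons of that library, and 485 Pomc-high neurons and 116 background cells (cells with at least 3 markers of non-neuronal types and at most 2 of the neuron genes) are given beside them. Among the 753 were 245 Ebf1 and Pou4f1 neurons. Members were the shallower cells, with a median of 12901 UMIs (6323 to 42698) against 18213 in the other Pomc-low neurons and 19496.5 in background cells. Only 1 member barcode of E11.5 occurred in another library, of 17 barcodes shared over all pairs of libraries.

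The genes of the rule are given as a description, since they chose the cells. Lhx1 had 687 UMIs in the members, with a median of 4 and a highest count of 14 per cell, and a level of 3.83 against 0.0523 in the other Pomc-low neurons. Lamp5 was the most abundant second gene, with a level of 8.89 against 0.189 and UMIs in 132 of 138 cells. Lbx1 was read in 117 members, at 2.37 against 0.140, and Uncx in 116, at 2.37 against 0.264. Pax2 was read in 84 members, at 1.34 against 0.0185. Hoxb2 was read in 61 members, at 1.57 against 0.0907, and Robo3 in 59, at 2.01 against 0.0381. Of the 6 second genes, 122 members held at least 3 and 23 held all 6. All 79 members with both Lbx1 and Pax2 also held Lamp5.

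Cells just inside and just outside the Lhx1 threshold are set side by side. The 16 Pomc-low neurons with 1 Lhx1 UMI and a second gene, just outside it, had levels of 6.42 for Lamp5, 1.82 for Lbx1, 0.482 for Pax2, 0.608 for Lhx5 and 1.41 for Slc32a1, the vesicular transporter of GABA and glycine. The 28 members with exactly 2 Lhx1 UMIs had 8.24 for Lamp5, 2.04 for Lbx1, 1.52 for Pax2, 1.62 for Lhx5 and 2.02 for Slc32a1. The 110 members with 3 or more had 9.06, 2.45, 1.29, 1.92 and 2.11 for the same genes. Lamp5, Lbx1 and Slc32a1 were thus closer across the threshold than Pax2 and Lhx5. Isl1, a LIM factor of Pomc neurons and of sensory and motor neurons, stood at 1.49, 1.08 and 0.315 in these 3 sets of cells, and Slc17a6, the vesicular glutamate transporter VGLUT2, at 0.279, 0.0845 and 0.0833. A further 6 cells had at least 2 Lhx1 UMIs and no second gene, and their level of Isl1 was 3.52. There were 4 neurons that met the Lhx1 and second-gene limits but were Pomc-high.

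Lhx1os was not part of the rule. It had more UMIs than Lhx1 in the members, 1059 against 687, and was read in 137 of 138 members, in 97 of them with more UMIs than Lhx1. Of the neurons with no Lhx1 UMI, 85 of 1199 (7.09%, 5.70 to 8.69) held Lhx1os, and of those with 1 Lhx1 UMI, 17 of 29 did. In background cells it was read in 1 of 116. The 2 transcripts do not overlap in the annotation used here.

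Of 6573 genes with a level of at least 0.2 in either group, outside the genes of the rule and Lhx1os, 147 (2.24%) were at least 2-fold higher in the members than in the other Pomc-low neurons and 266 (4.05%) at least 2-fold lower. Folds are ratios of levels with 0.1 added to each, which understates the change of low genes, and "higher" and "lower" below mean at least 2-fold on this scale. In each direction 32 genes differed at least 4-fold, and the median log2 difference of all genes was 0.03. With 0.5 added in place of 0.1 the counts were 48 higher and 52 lower, and in cells thinned to 2500 UMIs 228 and 353. The gene lists below are read beside these shares.

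The 12 genes highest in the members by fold included 2 neuropeptide precursors, a transmitter transporter and 4 transcription factors. Cartpt, the precursor of the CART peptide, had a level of 13.7 against 0.404, which is 27.4-fold, and was read in 112 of 138 members and 212 of 753 other Pomc-low neurons. Its level in single members ran from 0 through a median of 4.94 to 109.7, so it was far from even. Pnoc, the precursor of nociceptin, had 1.74 against 0.0624, 11.3-fold. Slc32a1 had 2.09 against 0.110, 10.5-fold. Among the factors, Irx4, an Iroquois homeodomain factor, had 1.40 against 0.0362, and Tfap2a, a factor of neural crest and of dorsal inhibitory neurons, had 1.89 against 0.0879 (10.6-fold). Mecom, a zinc finger factor, had 1.60 against 0.0742 (9.75-fold), and Lhx5 had 1.86 against 0.158 (7.61-fold). The others of the 12 were Rpp25, a protein subunit of ribonuclease P (13.6-fold), Nrxn3, a presynaptic adhesion protein (8.20-fold), Sez6, a membrane protein of dendrites and synapses (7.09-fold), Cacna2d3, an auxiliary calcium channel subunit (6.48-fold), and the unnamed gene model Gm27199 (6.32-fold). The levels of these genes in the 4 groups of E11.5 cells are plotted on a log axis.

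**Figure D1:**
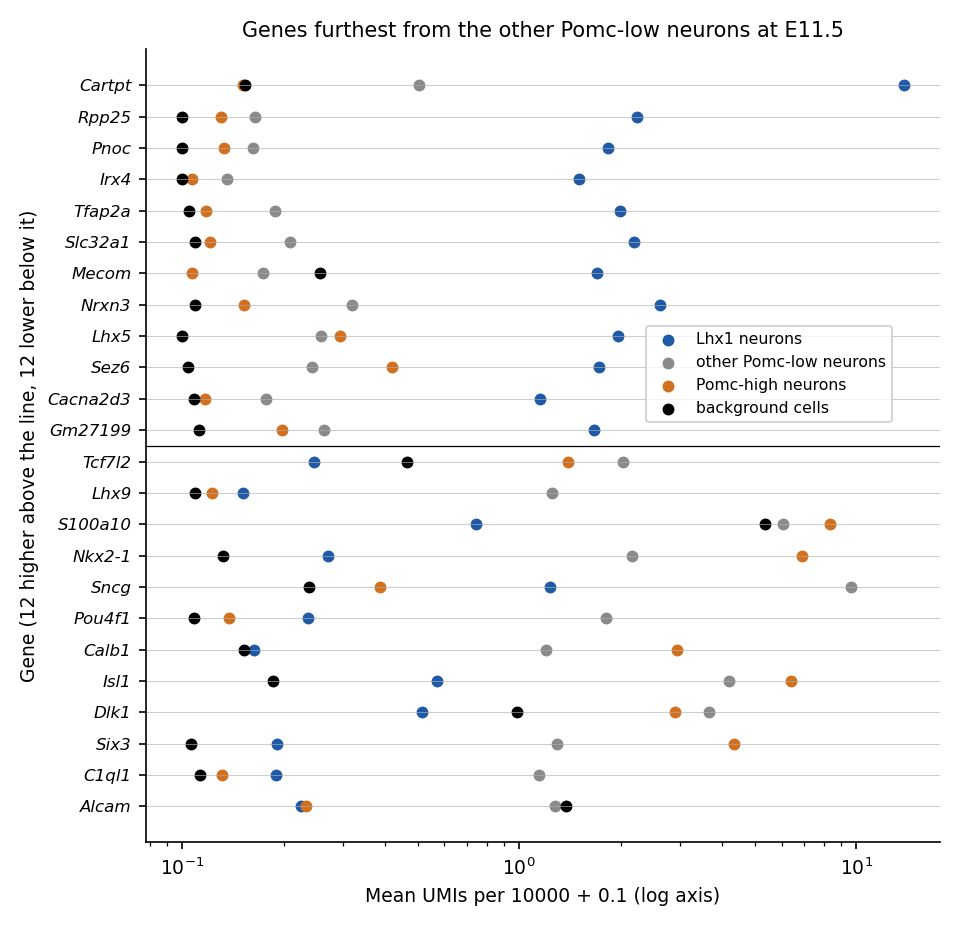
Levels at E11.5 of the 12 genes highest and the 12 lowest by fold in the Lhx1 neurons against the other Pomc-low neurons, on a logarithmic axis of mean UMIs per 10000 UMIs of the cell with 0.1 added, with 1 point per group of cells. Before that addition Cartpt had 13.7 in the Lhx1 neurons and 0.404 in the other Pomc-low neurons, and Nkx2-1 had 0.171 and 2.05, with 6.82 in Pomc-high neurons.

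The 12 genes lowest in the members by fold included 6 transcription factors. Nkx2-1, the factor that patterns the ventral hypothalamus, had 0.171 in the members, 2.05 in the other Pomc-low neurons and 6.82 in Pomc-high neurons, and was read in 6 of 138 members. Six3, a factor of the anterior forebrain, had 0.0907 against 1.19 and was also read in 6 members. Isl1 had 0.471 against 4.09, 7.34-fold lower. Tcf7l2, a Wnt effector of thalamic neurons, had 0.146 against 1.94 (8.27-fold lower), Lhx9, a LIM factor of thalamic and dorsal commissural neurons, 0.0520 against 1.15 (8.25-fold), and Pou4f1, a factor of sensory and midbrain neurons, 0.137 against 1.71 (7.64-fold). The other 6 were S100a10, an annexin partner (0.646 against 5.96), Sncg, gamma-synuclein (1.13 against 9.54), Calb1, a calcium buffer (0.0631 against 1.10), Dlk1, a Notch-family ligand-like protein (0.414 against 3.55), C1ql1, a secreted synaptic organizer (0.0899 against 1.04), and Alcam, an adhesion protein (0.126 against 1.18).

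By list, factors of inhibitory dorsal neural tube interneurons were higher in the members in 6 of the 7 genes that reached the level limit (of 16 listed), and none was lower. The median log2 difference of the 7 was 2.74 and that of all 16 was 0.12, against 0.03 for all genes compared. Of the 6 higher genes, all but Tfap2b reached the limit only through the members and could not have been called lower. Beside Lhx5 and Tfap2a the higher genes were Skor1, a corepressor partner of Lbx1 (0.796 against 0.0153, 7.78-fold), Pax8, a relative of Pax2 (0.621 against 0.00824, 6.66-fold), Gbx2, a homeobox factor of the anterior hindbrain (0.456 against 0.0235), and Tfap2b (2.99 against 1.09, 2.61-fold). Ptf1a and Prdm13, which act in the progenitors and newborn cells of this class, had no UMI in the members. Pax8 was read in 25 members and Gbx2 in 22, so both belonged to a minority of the cells. The excitatory dorsal list went the other way, with 8 of 8 genes lower (of 16 listed) and a median log2 difference of −2.45, or −1.15 over all 16. It held Tlx3 (0.0515 against 0.510, 4.02-fold lower) and Lhx2 (0.0385 against 0.626, 5.24-fold), besides Lhx9, Pou4f1 and Isl1. Some of the 8, such as Tlx3, Lhx2, Lhx9 and Pou4f1, reached the limit only through the other Pomc-low neurons and could not have been called higher.

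The label of the tissue is hypothalamus, and the defining factors of that region were low in the members. Of the 11 hypothalamic factors that reached the level limit (of 29 listed), 10 were lower in the members than in the other Pomc-low neurons, with a median log2 difference of −1.95, or −0.49 over all 29, and none was higher. With 0.5 added to the levels in place of 0.1, 5 of them were lower. Some of the 11, such as Nkx2-1, Six3, Six6 and Sox14, reached the limit only through the other Pomc-low neurons and could not have been called higher. Six6, a factor of the ventral hypothalamus and pituitary, had 0.0694 against 0.876 and Sox14 0.0820 against 0.918. Nkx2-1 and Six3 were also low in the Ebf1 and Pou4f1 neurons (0.168 and 0.142, against 0.171 and 0.0907 in the members). Isl1 was not, at 3.36 there against 0.471 in the members. Rax, Nkx2-4, Dlx1, Dlx2, Dlx5 and Dlx6 had no UMI in the members. Otp, a factor of neuroendocrine neurons, was the one not called, at 0.387 against 0.848 with UMIs in 7 members. Of the listed suprachiasmatic genes besides Lhx1, 3 reached the limit. Zfhx3 was higher (2.45 against 1.13), and Six3 and Six6 were lower. Vip, Avp, Vipr2 and Prok2 had no UMI in the members but were below the limit in the other Pomc-low neurons as well, so their absence does not set the members apart. Of the ventral neural tube factors 4 of 5 were lower and of the forebrain and midbrain factors 3 of 7, with none higher in either list. Ebf1, an early neuron factor, was read in all but 3 members, but Ebf1 and Pou4f1 together only in 13 (9.42%, 5.11 to 15.6). Whether tissue next to the hypothalamus entered the dissection was not tested.

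The members were mainly inhibitory by their transmitter genes. Of the 4 genes of GABA and glycine transmission that reached the level limit (of 6 listed), all 4 were higher, with a median log2 difference of 2.52, or 2.22 over all 6. Some of the 4, such as Slc32a1 (0.110 in the other Pomc-low neurons), reached the limit only through the members. Such genes could not have been called lower. Slc32a1 was read in 87.7% of members (81.0 to 92.7), 6.24% of the other Pomc-low neurons and 1.72% of background cells. Gad2, a GABA-synthesizing enzyme, was read in 76.8% of members against 11.3% of the other Pomc-low neurons, and Gad1 in 48.6% against 2.79%. Slc6a5, the glycine transporter of glycinergic nerve terminals, was read in 36.2% (28.2 to 44.8) against 1.06%. Slc17a6 was lower, read in 9.42% of members and 41.4% of the other Pomc-low neurons, with levels of 0.0836 and 0.525. At least 1 GABA gene (Gad1, Gad2 or Slc32a1) was read in 129 of 138 members (93.5%, 88.0 to 97.0) and in 13.8% of the other Pomc-low neurons.

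Counted cell by cell, 120 members held a GABA gene and no vesicular glutamate transporter, 5 the reverse, 9 both and 4 neither. Slc6a5 was found in 50 members, of which 49 also held a GABA gene. With every cell thinned to 2500 UMIs, so that depth was equal, the share with a GABA gene was 60.1% in the members and 5.18% in the other Pomc-low neurons, and the share with Slc32a1 fell to 34.1% in the members. Members were therefore the group with the most inhibitory cells at both depths, although they were the shallower cells. The shares with and without thinning are drawn side by side.

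**Figure D2:**
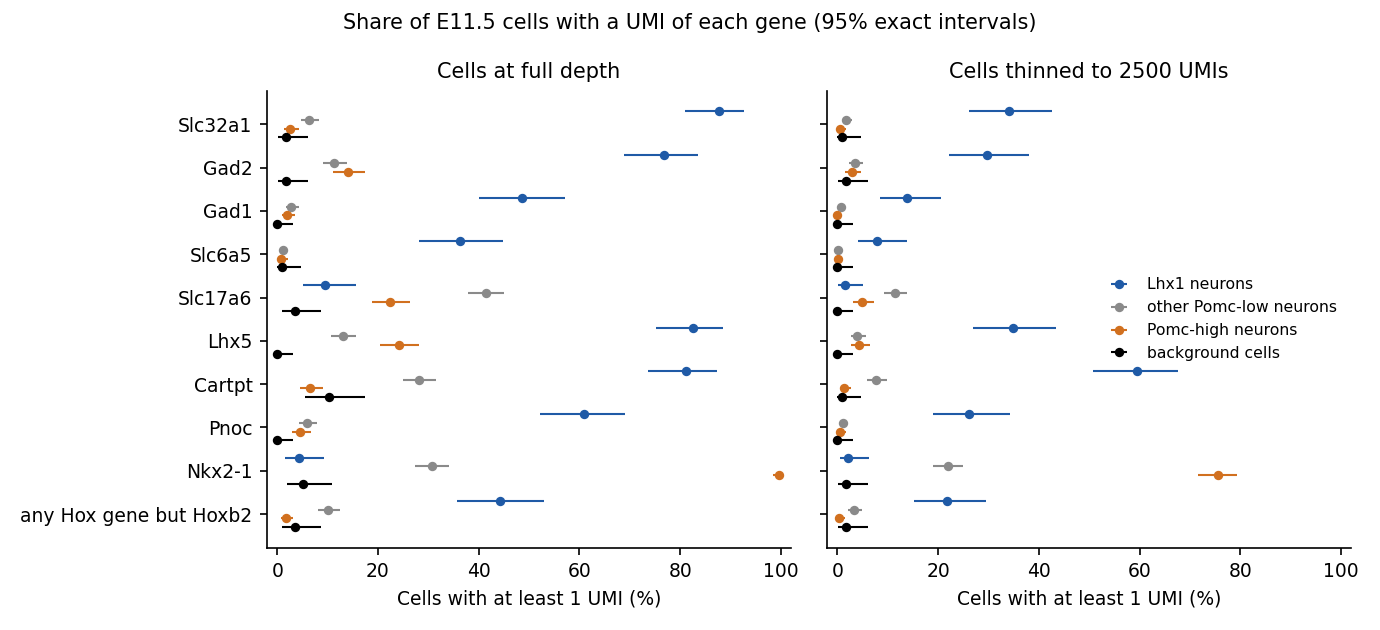
Share of E11.5 cells with at least 1 UMI of a gene, in percent, for the Lhx1 neurons, other Pomc-low neurons, Pomc-high neurons and background cells, at full depth (left) and thinned to 2500 UMIs (right), with exact 95% intervals as bars. The Lhx1 neurons stand highest for Slc32a1 (87.7% and 34.1%) and for any Hox gene but Hoxb2 (44.2% and 21.7%), and low for Nkx2-1 and Slc17a6.

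Of 24 listed neuropeptide precursors besides Pomc, 4 reached the level limit, and 3 of them were higher. Besides Cartpt and Pnoc this was Penk, the enkephalin precursor, at 0.363 against 0.0935 in 22 members, all of which also held Cartpt. Pnoc and Penk reached the limit only through the members. Sst, the somatostatin precursor, was lower, at 0.684 against 2.50. Npy and Agrp, the peptides of the arcuate neurons that oppose Pomc neurons, were read in 1 and 2 members. Every deposited cell had at least 1 Pomc UMI, since the authors kept no others. Exactly 1 Pomc UMI was found in 116 of 138 members (84.1%), in 103 of 116 background cells (88.8%) and in 460 of the 753 other Pomc-low neurons (61.1%). The level was 1.08 in the members, 0.604 in background cells and 31.3 in Pomc-high neurons, and 6 members had 8 or more Pomc UMIs, up to 21.

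Hox genes were read in the members from the front end of the clusters alone. The members held 295 UMIs of Hoxb2, which is a gene of the rule, 106 of Hoxa2, 41 of Hoxb3, 12 of Hoxa3, 10 of Hoxb1, 5 of Hoxc4 and 1 each of Hoxb4 and Hoxd3. The 27 listed genes of paralogue groups 5 to 13 had no UMI in the members. This was not particular to the members. The same 27 genes had 1 UMI in the other Pomc-low neurons, where groups 1 to 4 but Hoxb2 had 263. They had none in Pomc-high neurons and background cells. Leaving Hoxb2 out, 61 of 138 members (44.2%, 35.8 to 52.9) held a UMI of a Hox gene, against 10.1% of the other Pomc-low neurons, 1.65% of Pomc-high neurons and 3.45% of background cells. The summed level of these genes was 0.968 in the members and 0.197 in the other Pomc-low neurons. In cells thinned to 2500 UMIs the share of members was 21.7%.

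Because Hoxb2 was one of the second genes, the rule was also applied without it. That kept 137 members, of which 60 held Hoxb2 and 60 another Hox gene. The antisense gene Hoxb3os was higher in the members as well, at 0.587 against 0.0228. Hoxb2 lies wholly within Hoxb3os on the other strand (chromosome 11, 96350525 to 96354012 within 96343072 to 96354691). How the counting used strand is not given in the sources used here, and whether reads of this pair were kept apart was not tested. Hoxa2 lies on another chromosome, 6, and was read in 58 members at 0.585 against 0.0719. In the list of Hox antisense genes and cofactors, 4 of the 8 genes that reached the limit (of 11 listed) were higher and none was lower. Of all genes compared 2.24% were higher. The median log2 difference of the 8 was 0.93, or 0.46 over all 11. Beside Hoxb3os, which reached the limit only through the members, the 4 were cofactors that bind DNA together with Hox proteins. They were Meis1 (1.00 against 0.252), Meis2 (6.62 against 2.36) and Pbx3 (1.36 against 0.544).

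**Figure D3:**
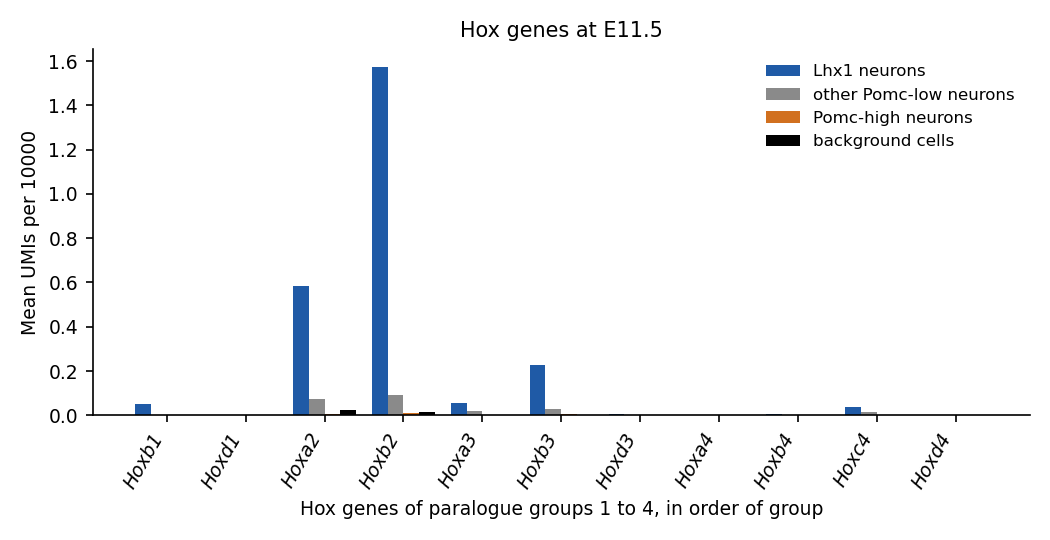
Levels of 11 Hox genes of paralogue groups 1 to 4 at E11.5, as mean UMIs per 10000 UMIs of the cell, with 1 bar per gene and group of cells. Hoxb2, a gene of the rule, stands at 1.57 in the Lhx1 neurons and Hoxa2 at 0.585, against 0.0907 and 0.0719 in the other Pomc-low neurons.

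Factors of birth order were mixed. Of 8 that reached the limit, Pou2f2 (4.02 against 1.77), Zfhx3 and Zfhx4 (1.27 against 0.570) were higher and Neurod1 was lower (0.260 against 0.654). Onecut2, another factor of early-born neurons, was read in all but 3 members, at 8.40 against 5.07, which is under 2-fold. Of the cell-cycle genes 3 of 4 were lower and of the progenitor genes 2 of 8, with none higher. Of the genes of later neurons 3 of 14 were higher, which were Dcx, a microtubule protein of migrating neurons (7.32 against 3.46), Rbfox1, a splicing factor (1.88 against 0.385), and Nrxn3, while the vesicle protein Syt4 was lower (0.734 against 1.60).

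Of the 20 axon guidance receptors that reached the limit, 4 were higher and 3 lower. The ephrin receptor Epha4 had 0.588 against 0.0842 (3.73-fold) and Epha5 1.10 against 0.461 (2.14-fold), and the axonal adhesion proteins Cntn2 and Nrcam were 2.24-fold and 2.26-fold higher. Nrp1 (0.0643 against 0.384), Nrp2 (0.196 against 0.514) and Alcam were lower, of which the first pair are semaphorin receptors. Of the guidance ligands 2 of 12 were lower and none was higher. Of the cadherins 3 of 10 were higher and 1 lower, and of the receptors for fast transmitters that reached the limit none of 4 differed 2-fold. Of the proteins of secretory granules 1 of 7 was lower. No gene of acetylcholine or monoamine transmission reached the level limit.

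Markers of other cell types were low in the members. The summed level of 6 microglial genes was 0.0247 in the members, 0.169 in the other Pomc-low neurons and 4.74 in background cells, and 3 of the 6 had no UMI in the members. For 6 genes of vascular leptomeningeal cells the sums were 0.358, 2.22 and 18.9, and the highest member stood at 12.9. For 7 glial genes they were 0.0829, 0.416 and 2.15, with 5 of the 7 at 0 in the members, and for the 9 genes of sensory ganglia and neural crest 0.861, 3.76 and 0.881. The 6 pituitary genes had no UMI in the members, and 3 of 4 endothelial genes had none. The 6 erythroid genes were at 39.4 in the members, 38.5 in the other Pomc-low neurons and 38.3 in background cells, so they were at about the same level in every group.

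Clustered on 2000 variable genes, the E11.5 cells formed 9 clusters. Of the 138 members, 126 (91.3%, 85.3 to 95.4) fell into 1 cluster of 202 cells. The genes of the cells clustered are not independent of the cluster, and values within it are a description. Of the 76 other cells of that cluster 60 had no Lhx1 UMI, 11 had 1 and 5 had 2 or more. Lbx1 was read in 43 of them, but Slc17a6 in 50 and a GABA gene in 21 (27.6%). Cartpt had 14.5 in the 126 members and 0.922 in the 76 other cells, Lhx5 2.02 and 0.394, and Slc17a6 0.0728 and 1.25. The cluster thus held Lbx1 cells of both transmitter kinds.

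The 12 members outside that cluster differed from the rest in depth and in genes. Their median depth was 28455 UMIs against 12678, and a doublet caller marked 6 of the 12 and 3 of the 126 (62 of 1498 cells in the library). Isl1 had 4.04 in the 12 and 0.131 in the 126, Nkx2-1 1.42 and 0.0517, S100a10 5.50 and 0.183, Crabp1, a retinoic acid binding protein, 51.9 and 7.86, and Lhx5 0.219 and 2.02. Of the 6 members with 8 or more Pomc UMIs, 5 were among these 12. With the 126 members alone, 161 genes were higher and 302 lower than in the other Pomc-low neurons, which include all 147 and 266 of the whole group. Whether these 12 were droplets with more than 1 cell was not tested beyond the doublet caller, and no cell was removed for it.

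The members were not uniform, and their genes differed with the second genes they held. The splits below compare members with each other on genes that the split did not use, and the median depths of the groups split ran from 12583 to 14475 UMIs. The 117 members with Lbx1 had more of the Iroquois genes, with Irx5 at 1.56 against 0.206 in the 21 members without Lbx1 and Irx2 at 3.88 against 0.764. They also had more Mecom (1.82 against 0.366) and more of the nuclear receptor Nr4a2 (2.24 against 0.396). The 21 members without Lbx1 had more Otp (2.35 against 0.0345, from 5 of the 21 cells), more En1, a factor of midbrain, anterior hindbrain and ventral interneurons (1.85 against 0.0723, from 8 of the 21), and more Crabp1 (36.7 against 7.20). Slc32a1 was read in 109 of the 117 and 12 of the 21.

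The split by Uncx was like that by Lbx1 for Otp, En1 and some other genes, but not for all. Irx2 was at 3.80 with Uncx and 1.34 without, and Cdo1 at 3.55 and 1.09. By Lbx1, Irx2 was at 3.88 and 0.764 and Cdo1 at 3.56 and 0.928. Among genes that differed between the splits, the 116 members with Uncx had more Tfap2b (3.41 against 0.763) and Tfap2a (2.15 against 0.526) than the 22 without. The Lbx1 split had Tfap2b at 3.02 and 2.83, and Mecom was at 1.66 and 1.27 by Uncx. The 22 had more Otp (2.27 against 0.0308) and En1 (1.65 against 0.0946), each from 6 of the 22 cells. These splits share cells and are not separate evidence.

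The Hoxb2 members carried further genes of the Pax and Hox families. This split was added after the values had been seen. Pax8 was read in 24 of the 61 members with Hoxb2 and 1 of the 77 without, at 1.40 against 0.00576. Hoxa2 was read in 46 of 61 and 12 of 77, Hoxb3 in 14 and 0, and Hoxb3os, which overlaps Hoxb2, in 29 and 4. The opposite pattern was seen for Nr4a2, read in 17 of 61 and 52 of 77 (0.459 against 3.15). The Pax2 split resembled it, with Pax8 in 24 of 84 members with Pax2 and 1 of 54 without, Hoxb2 at 2.32 against 0.420 and Skor1 at 1.07 against 0.375. Slc32a1 was read in 80 of the 84 and 41 of the 54.

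Among genes higher in the 59 members with Robo3 than in the 79 without, Pax8 and Hoxb3os had the largest folds. Pax8 was read in 18 and 7 cells (1.24 against 0.160, 5.15-fold), and Hoxb3os in 22 and 11 (1.17 against 0.148). Those with Robo3 also had more Cntn2 (1.30 against 0.257), more Pid1 (4.99 against 1.25), more Rpp25 (3.47 against 1.14), more Igfbpl1, a secreted protein of newborn neurons (7.55 against 1.96), and more Pou2f2 (6.77 against 1.97). They had less Robo2, a receptor for Slit (0.637 against 1.77). Larger folds than that of Pax8 were downward. These included the synaptic adhesion protein Lrfn5 (0.0664 against 1.03, 6.79-fold) and the netrin-G protein Ntng1 (0.133 against 1.47, 6.75-fold). Penk was read in 2 of the 59 and 20 of the 79. The heat map gives all 5 splits.

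**Figure D4:**
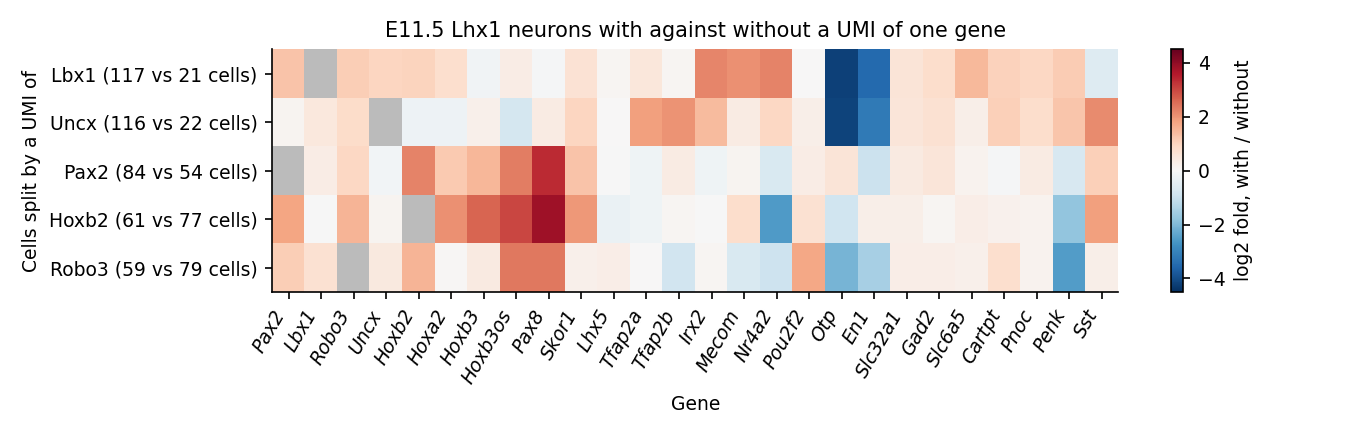
Log2 ratio of levels (0.1 added) between E11.5 Lhx1 neurons with and without a UMI of Lbx1, Uncx, Pax2, Hoxb2 or Robo3 (rows), for other genes (columns), with the gene of the split itself in grey. Members without Lbx1 or Uncx have more Otp and En1, and members with Hoxb2 or Robo3 have more Pax8.

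After E11.5 few cells met the rule, and they differed from the E11.5 members. At E13.5 the share was 6 of 1243 Pomc-low neurons (0.483%, 0.177 to 1.05), at E15.5 7 of 1491 (0.469%, 0.189 to 0.965) and at E17.5 2 of 814 (0.246%, 0.0298 to 0.885), against 138 of 891 at E11.5. Thinned to 2500 UMIs per cell, 0.248% were members at E13.5, 0.142% at E15.5 and none at E17.5, against 2.61% at the first age. The libraries were less deep, with median UMIs of 12872.5, 10699 and 8047 per cell against 17317.5 at E11.5, and with 1 library per age the share is not known beyond these libraries. In whole libraries, Lbx1 had 660 UMIs in 186 cells at E11.5 and none in any cell at the 3 later embryonic ages, which allows a share of cells with a UMI, at these lower depths, of up to 0.167%, 0.144% and 0.263% from 3 counts. Hoxb2 had 434 UMIs in 114 cells at E11.5 and none at those ages. Uncx and Robo3 did not follow them. From the first to the last of the 4 ages, Uncx was read in 262, 299, 228 and 17 cells, and Robo3 in 101, 108, 25 and 3.

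The 15 later members met the rule chiefly through Uncx, which all 15 held. Pax2, Lbx1 and Hoxb2 were read in none of them, Robo3 in 1 and Lamp5 in 1, so the label of Lhx1, Pax2 and Lbx1 neurons described the E11.5 cells and not these. Lhx1os was read in 13 of 15 and Lhx5 in 9. Slc17a6 was read in 10 and Slc32a1 in 3, the reverse of E11.5. Pou2f2 was read in 12, Dmrtb1, a DM-domain factor, in 11, Pcp4, a calmodulin regulator, in 8 and Nkx2-1 in 6. Tbr1, a T-box factor, Gata3 and Foxb1, a forkhead factor of mammillary neurons, were read in 3 cells each. Pax8, Gbx2, Tfap2b and Slc6a5 were read in none. Against E11.5, the 7 members of E15.5 had more Pcp4, at 27.0 against 0.112, with 103 UMIs in 5 cells. A single cell of 2933 UMIs held 33 of them, and without it the level was 12.7, where the other Pomc-low neurons had 2.85 and 0.318. Nkx2-1 was read in 3 of these 7 cells and in 6 of the 138 at E11.5. Crabp1, at 11.7 in the members and 23.6 in the other Pomc-low neurons of E11.5, had no UMI in the 7 and 0.00695 in the other Pomc-low neurons of E15.5, and the embryonic globin Hbb-y was lower at E15.5 in both groups (25.3 and 24.5, then 0.834 and 1.03). Slc32a1 had no UMI in the 7, while in the other Pomc-low neurons its level was 0.110 at E11.5 and 0.436 at E15.5.

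The later members did not share a cluster. The fullest cluster held 3 of 6 at E13.5, 3 of 7 at E15.5 and 1 of 2 at E17.5.

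**Figure D5:**
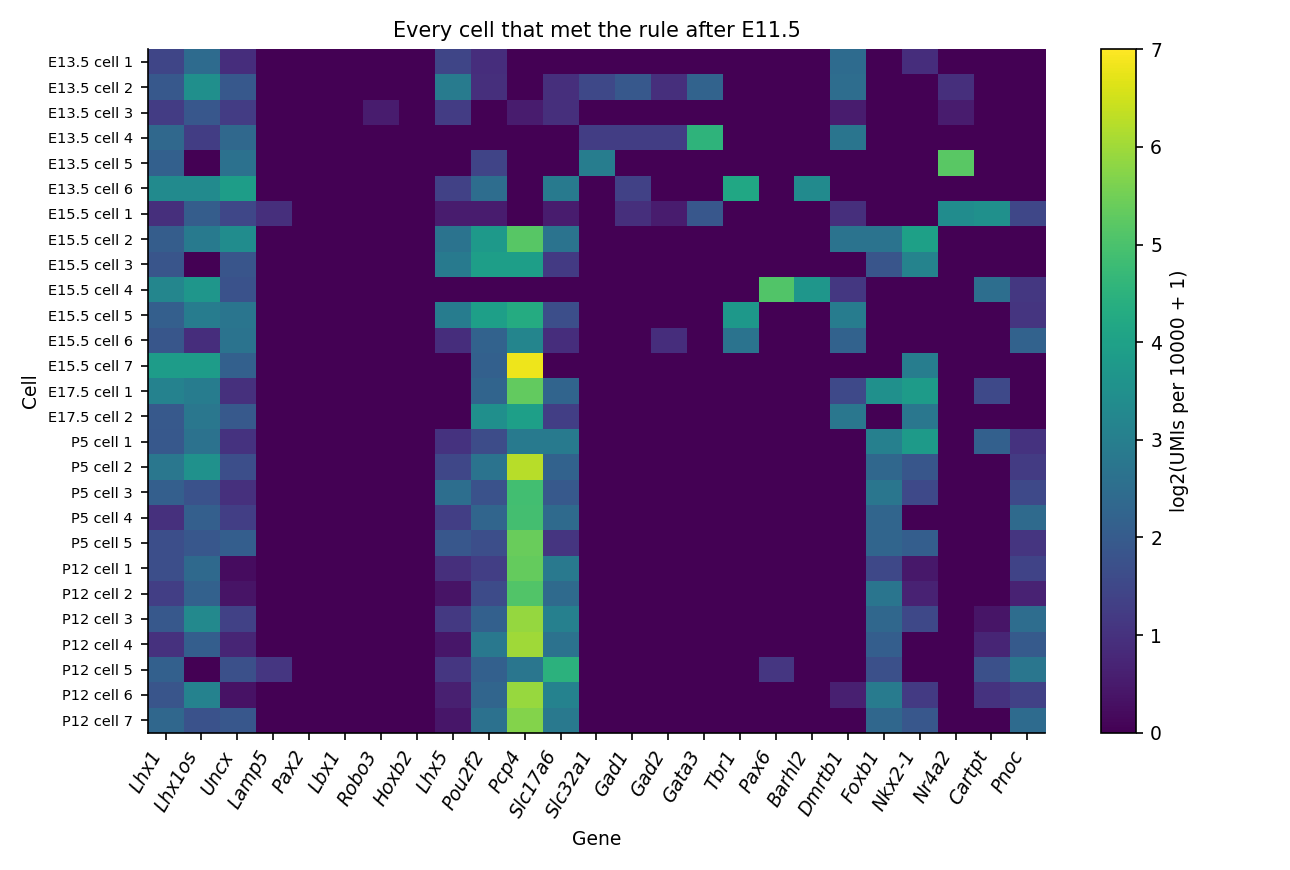
Counts of 25 genes in each of the 27 cells that met the rule after E11.5 (15 embryonic and 12 postnatal), as log2(UMIs per 10000 UMIs of the cell + 1), with 1 row per cell in order of age and 1 column per gene. Uncx is present in every cell, Lbx1 and Pax2 in none, and Foxb1 in all 12 postnatal cells.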

How the data were processed

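Cells sorted for red fluorescence from Pomc-DsRed hypothalami were sequenced by 10x Genomics 3' single-cell RNA sequencing, with 1 library per age. Per the submitters' processing notes, the authors used Cell Ranger 2.2.0 and 3.0.0, Seurat 3.0 and build mm10, and deposited whole-number UMI counts per gene and cell, already filtered by the authors on total UMIs, genes, mitochondrial and hemoglobin share and on at least 1 Pomc UMI. No normalization was applied to the deposited counts, which total 9832065 to 81593741 UMIs per library. DsRed was not analysed here.

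From the counts, members were found by the rule given above, and each cell's counts were scaled to 10000 UMIs and averaged over cells to give a level. A gene was compared where its level reached 0.2 in either group, with 0.1 added to both levels and a 2-fold limit. Shares have Clopper-Pearson and sums Poisson intervals at 95%. Cells were thinned to 2500 UMIs for equal depth. Clusters came from Seurat 5.3.0 in R 4.3.3, doublet calls from Scrublet in scanpy 1.11.5, and the rest from Python 3.11.15. With 1 library per age there is no test and no p. A limit for a count of 0 is 3 counts. The 12 genes with the largest folds each way among those with a level of at least 1 in either group were named, with members of the lists and, for the splits, genes chosen likewise. The members and lists were chosen with earlier results of these data known. On simulated counts, all of the 4-fold changed genes were called and none of 6037 unchanged ones. Of 50 genes changed exactly 2-fold each way, none was called upward and 68% downward, so the limit is not even in the 2 directions. The changed genes all had a level of at least 1 in the other Pomc-low neurons, and simulated cells of a group differed only in depth and counting error. The simulation therefore does not cover changes in genes with levels from 0.2 to 1, or groups of mixed cells. RefSeq GRCm38.p6 gave the promoter window.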

Additional observations from a re-analysis of the deposited data

Results flagged for a closer look

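Outside the 4 embryonic libraries the rule of the Lhx1 neurons was also met after birth, in 5 of 3909 cells at P5 (0.128%, 0.0415 to 0.298) and 7 of 3533 cells at P12 (0.198%, 0.0797 to 0.408). A count of 0 would allow shares of up to 0.0767% and 0.0849%, and both intervals reach below these limits. These libraries were not used in the comparisons. All 12 cells held Foxb1, Pcp4, Slc17a6, Lhx5, Pnoc and Pou2f2, and Nkx2-1 was read in 9. None held Gad1, Gad2, Slc32a1, Lbx1 or Pax2.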

How the results depend on the processing

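No 2-fold difference of the E11.5 comparison reversed under the alternatives, and 176 of 197 values of the main results stayed within their limits. The share of Pomc-low neurons at E11.5 was 12.3% with at least 3 Lhx1 UMIs and 2.61% in cells thinned to 2500 UMIs, and with no Pomc limit 10.3% of all neurons were members. It was 1.37% at E13.5 with 1 Lhx1 UMI, and in thinned cells 0.142% at E15.5 and 0% at E17.5. The higher genes were 228 in thinned cells, 130 of them among the 147, and 48 with 0.5 added, where the lower were 52. With 0.5 added the lists held 2 higher Hox antisense and cofactor genes, 5 lower excitatory dorsal and 5 lower hypothalamic factors, and the log2 differences were 1.08 for the summed Hox genes but Hoxb2 (1.85 with 0.1 added), 2.09 for Slc32a1 and −0.81 for Slc17a6. Thinned, 21.7% of members held a Hox gene but Hoxb2, 60.1% a GABA gene, 7.97% Slc6a5 and 1.45% Slc17a6. The cluster held 96.1% of E11.5 members without the highest doublet scores. At E17.5, clustered separately, only 1 of the 2 members had at least 3 Lhx1 UMIs, so the value of 100% in that setting is 1 cell and shows no shared cluster. Of 3905 values of named genes 149 moved and none reversed. Of these moves, 126 were among the 1001 values of the 91 named genes with a 2-fold difference in the main setting. Only differences of at least 2-fold could be labelled reversed, so counts, shares and smaller differences could not. The restriction to the leading cluster was chosen after seeing the data. No paired analysis was possible because there was 1 library per age and no replicate numbers. Depth limits genes near 1 UMI per cell, and nothing here shows how far another litter would differ.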
